A study of Mus musculus with 12 samples.

Results

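PD-L2 overexpression was compared with its absence in YUMM1.7 melanoma tumors treated with a BRAF inhibitor (BRAFi). The comparison sets 3 PD-L2 BRAFi tumors against 3 control BRAFi tumors, which are 6 of the 12 libraries of the series. It runs over every gene with a mean of at least 1 FPKM (fragments mapped, divided by transcript length and library size; the unit the authors deposited) over the 12 libraries, which kept 12117 of the 23940 genes in the table. YUMM1.7 is a mouse melanoma cell line with an activated Braf allele. The PD-L2 BRAFi tumors are labelled as overexpressing PD-L2 and as treated with BRAFi, and the control BRAFi tumors carry the same treatment without the overexpression. The remaining 6 libraries, 3 control and 3 PD-L2 tumors given vehicle (DMSO in the titles), serve for side by side values and for the test of the difference between the treatments. The sample labels give NSG mice as hosts and the series' design text gives NOD/SCID mice; both strains lack mature T and B lymphocytes. The inhibitor's name, dose and duration, the construct that drives PD-L2 and whether the PD-L2 line is a clone were not given in the sources used here, and the design text speaks of resistance to BRAFi where the labels give only the treatment.

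PD-L2, encoded by Pdcd1lg2, belongs to the B7 family of immune ligands. It binds PD-1, an inhibitory receptor of activated T cells, and in this way dampens T cell responses. BRAF inhibitors block the mutant BRAF kinase, which drives melanoma growth through MEK and ERK. With no T cells in the host, the comparison concerns the RNA of tumor cells and of the remaining host cells, such as macrophages, vessels, blood and skin, in bulk.

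Depth is unknown because no read counts are given, so precision rests on the number of tumors. FPKM sums were 499845 to 548018 in the control BRAFi tumors and 571786 to 648254 in the PD-L2 BRAFi tumors, with no overlap. Without small RNA genes they were 486041 to 528673 and 510648 to 559992, with overlap. Within each BRAFi group, Spearman correlations over the tested genes were 0.909 to 0.950, and between the groups 0.899 to 0.959. PD-L2 BRAFi tumor 2 stood apart in that the microRNA gene Mir2137, listed at 0 in the other 11 libraries, took 16.1% of its FPKM sum. It was also the lowest of the 12 libraries for the Y-linked genes Ddx3y (3.60 FPKM, against 9.97 to 29.5 in the others), Kdm5d (0.641 against 2.36 to 4.98) and Uty (0.478 against 1.93 to 5.30), which were chosen after their values were seen. PD-L2 BRAFi tumor 3 stood apart in that it was the highest of the 6 BRAFi tumors for 8 of 8 tested keratinocyte and 10 of 12 tested skeletal muscle markers. Of 17 melanocyte genes, 6 passed the filter; the pigment genes Tyrp1, Dct, Mlana and Oca2 were at or near 0 in all 6 BRAFi tumors, while Mitf, the master regulator of the lineage, stood at 2.32 to 5.16 FPKM. Sox10, a neural crest factor of the same list, was 24.9, 0.0910 and 6.66 FPKM in the control tumors and 1.38, 0.722 and 0.131 FPKM in the PD-L2 tumors, highest in control tumor 1. The T cell marker Cd3g was listed at 0 in all 6. Cd3g and Gzma were the 2 of 19 lymphocyte and NK cell genes listed at 0 in all 12 libraries. The summed FPKM of the 19 genes was low, at 3.67 to 9.73 in control and 4.40 to 8.15 in PD-L2 tumors under BRAFi.

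Pdcd1lg2 separated the groups in every tumor. Its values were 0.898, 3.54 and 0.863 FPKM in the control tumors and 176, 20.8 and 171 FPKM in the PD-L2 tumors. All PD-L2 tumors lay above all control tumors, and PD-L2 tumor 2 carried the least. Pdcd1lg2 was 69.5 times higher by group means (123 ± 88.5 against 1.77 ± 1.54 FPKM, SD, n = 3), with a log2 difference of 5.11 ± 0.72 (SE; log2(FPKM + 1) scale, as for every log2 difference here) and a limma adjusted p of 0.0454. Under vehicle the log2 difference was 5.80 ± 0.72, and the treatments did not differ past the threshold (interaction unadjusted p = 0.520). Without any 1 of 11 libraries in turn the adjusted p was 0.0727 to 0.265, and without PD-L2 BRAFi tumor 2 it was 0.000539, with log2 differences of 4.60 to 6.12 over all 12.

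Across the 12117 genes, 9 passed the threshold (limma, Benjamini-Hochberg adjusted p under 0.05), which is 0.0743% of those tested. There were 7 higher in the PD-L2 tumors (0.0578%) and 2 lower (0.0165%). They were Pdcd1lg2, the hemoglobin genes Hba-a1, Hbb-b1 and Hbb-b2, the zinc finger gene Zfp503 and the microRNA genes Mir212 and Mir1940 on the higher side, and the potassium channel gene Kcnk3 and the chaperone gene Dnajc3 on the lower side. At an unadjusted p under 0.05 there were 856 genes (7.06%), 515 higher (4.25%) and 341 lower (2.81%). The 3 tumors of each group did not overlap for 1389 genes (11.5%), 810 higher in PD-L2 tumors (6.68%) and 579 lower (4.78%). The median log2 difference of all genes was -0.01, and their median SE was 0.17. Apart from Mir212 and Mir1940, the called genes had adjusted p = 0.0454, just inside the threshold. Kcnk3, Mir212 and Mir1940 passed the filter on low values through a single group, so their calls are descriptions only. The count of 9 became 2 without control vehicle tumor 1, control vehicle tumor 2 or PD-L2 BRAFi tumor 3; it became 3 without control vehicle tumor 3, PD-L2 vehicle tumor 1, control BRAFi tumor 1, control BRAFi tumor 2 or PD-L2 BRAFi tumor 1. It became 14 without control BRAFi tumor 3, of which 2 were among the 9.

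**Figure D1:**
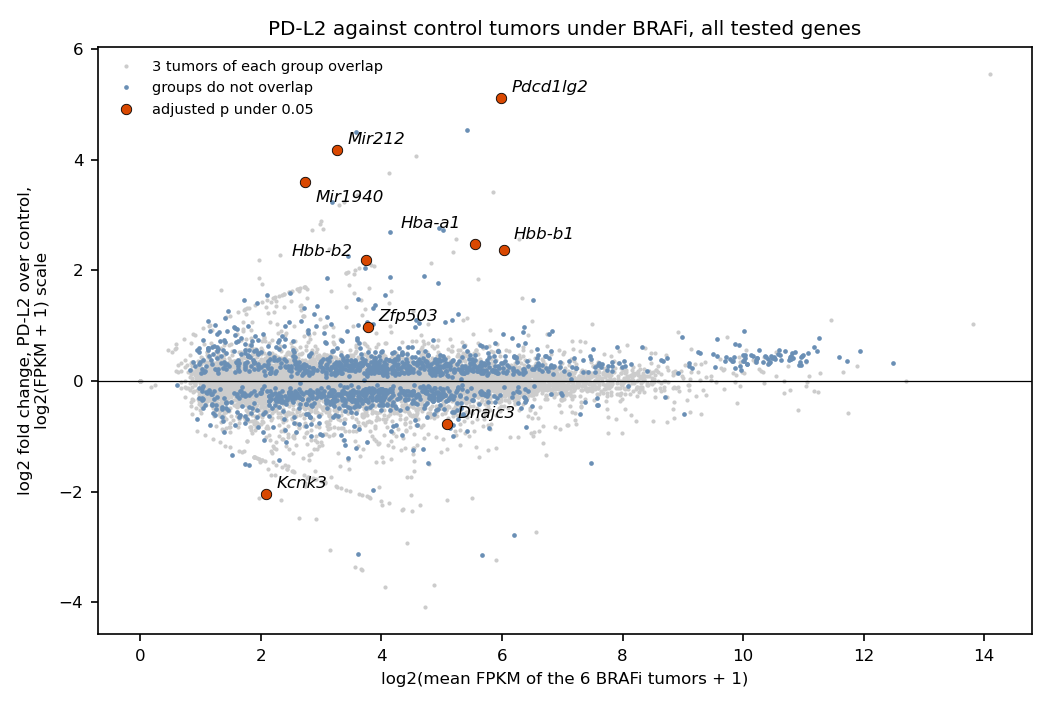
Log2 difference between PD-L2 and control tumors under BRAFi (vertical) against the mean level of the 6 BRAFi tumors (horizontal, log2(FPKM + 1)) for each of the 12117 tested genes. The 9 genes past the threshold are orange and named; the other genes whose tumors do not overlap between groups are blue.

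The hemoglobin genes rose together in PD-L2 tumors under BRAFi. Hba-a1, the alpha-globin chain of adult hemoglobin, stood at 14.1, 15.8 and 10.2 FPKM in the control tumors and 94.5, 61.8 and 80.5 FPKM in the PD-L2 tumors. Hbb-b1, an adult beta-globin chain, stood at 19.1, 22.9 and 17.3 FPKM in the control tumors and 141, 84.1 and 100.5 FPKM in the PD-L2 tumors. For Hbb-b2, the other adult beta-globin, values were 3.28, 5.13 and 3.20 FPKM in the control tumors and 24.1, 16.5 and 22.6 FPKM in the PD-L2 tumors. For each of these genes every PD-L2 tumor lay above every control tumor, by 5.44 to 5.89 times in group means. The log2 differences were 2.47 ± 0.36 for Hba-a1, 2.38 ± 0.34 for Hbb-b1 and 2.18 ± 0.31 for Hbb-b2 (limma adjusted p = 0.0454 each). The low group was the control BRAFi group: in the vehicle tumors Hba-a1 was 85.6, 55.5 and 61.4 FPKM in controls and 60.5, 136 and 44.3 FPKM with PD-L2, a log2 difference of 0.11 ± 0.36.

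The difference between the treatments had an unadjusted interaction p of 7.59e-04 for Hba-a1, 6.93e-04 for Hbb-b1 and 3.46e-04 for Hbb-b2, and none passed the threshold after adjustment (smallest limma adjusted p = 0.466). Of 10 genes on the erythroid list, 8 were in the table and 5 were tested, 3 of them past the threshold. Alas2, which starts heme synthesis in red cell precursors, was 0.465, 0.772 and 0.390 FPKM in the control tumors and 2.46, 1.39 and 2.64 FPKM in the PD-L2 tumors, with no overlap and a limma adjusted p of 0.390. Hbb-bs was listed at 0 in 5 tumors and stood at 3.95 FPKM in PD-L2 tumor 1. The globin genes have near-identical copies, so the split of reads between Hba-a1 and Hba-a2, or between Hbb-b1 and Hbb-bs, is uncertain. Globin RNA is carried by immature red cells in blood; the endothelial list, for vessels, had a median log2 difference of 0.27 (-0.08 without PD-L2 tumor 2 and 0.60 without PD-L2 tumor 3) with 0 of 16 members past the threshold, and the summed FPKM of its genes overlapped between the groups (220.1 to 353 FPKM in control, 218 to 359 FPKM in PD-L2 tumors). The part of blood content in the globin difference was not tested, and in bulk tumors fewer cells of a type and less RNA per cell cannot be told apart. Without any 1 of 10 libraries in turn the globin adjusted p was 0.0787 to 0.265; without PD-L2 vehicle tumor 2 or 3 it was 0.00600 to 0.0367.

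The Hba-a1 promoter is shown because this gene had the largest log2 difference of the hemoglobin genes and the sequence carries motifs named for erythroid factors. RefSeq (GRCm38.p6, whereas the deposited values used mm9) places the 250 bases before its start at chr11:32283422-32283671 on the plus strand. Capitals mark GATAA, the core that GATA factors recognise, and CACCC, the core that KLF factors recognise.
Hba-a1 promoter: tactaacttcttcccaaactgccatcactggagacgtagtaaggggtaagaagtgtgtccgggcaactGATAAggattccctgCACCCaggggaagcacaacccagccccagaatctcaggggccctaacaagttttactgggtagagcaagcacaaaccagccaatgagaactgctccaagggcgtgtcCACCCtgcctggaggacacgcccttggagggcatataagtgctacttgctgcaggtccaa
GATAA lies 182 to 178 bases before the start, and CACCC lies 167 to 163 and 60 to 56 bases before it. On either strand, GATAA occurs in 22.6% and CACCC in 52.0% of the 32851 promoter windows of this length, so a match is a description of these letters only.

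**Figure D2:**
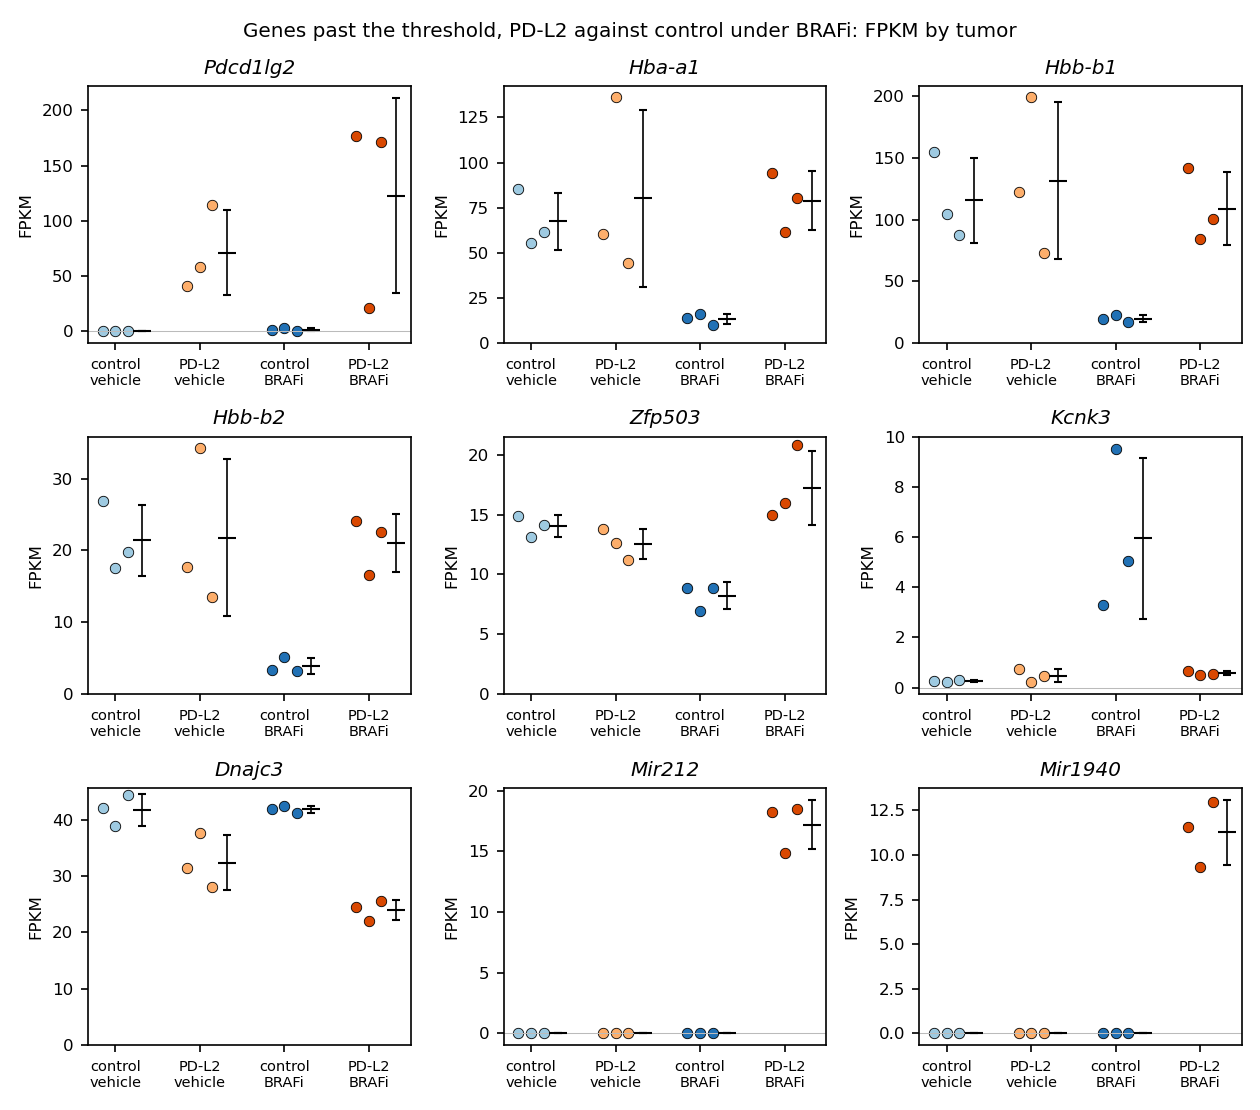
FPKM of the 9 genes past the threshold in each tumor (points), with the mean and SD of each group of 3 (bar to the right), for control and PD-L2 tumors under vehicle and BRAFi. The 3 hemoglobin genes are low in the control BRAFi tumors alone, Kcnk3 is high in those tumors alone, and Mir212 and Mir1940 are listed at 0 outside the PD-L2 BRAFi tumors.

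Dnajc3 fell in PD-L2 tumors under BRAFi, with a narrow spread. It encodes an endoplasmic reticulum co-chaperone that assists BiP and restrains the kinase PERK in the unfolded protein response. Its values were 41.9, 42.5 and 41.2 FPKM in the control tumors and 24.4, 22 and 25.5 FPKM in the PD-L2 tumors. The group means were 41.9 ± 0.639 and 24 ± 1.83 FPKM (SD, n = 3), 1.75 times lower with PD-L2, and the log2 difference was -0.78 ± 0.11 (limma adjusted p = 0.0454). Under vehicle it was -0.37 ± 0.11 (adjusted p = 0.330), of the same sign. Without any 1 of 10 libraries in turn the adjusted p was 0.0787 to 0.265; it was 0.0288 without PD-L2 vehicle tumor 2 and 0.0461 without PD-L2 vehicle tumor 3.

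Dnajc3 was the sole member past the threshold among 24 tested genes of the unfolded protein and integrated stress response list. The list's median log2 difference was -0.16, and 20 of the 24 were negative. Herpud1, which helps to clear misfolded proteins, was 45.1, 40.5 and 59.6 FPKM in the control tumors and 36.3, 31.2 and 27 FPKM in the PD-L2 tumors (log2 difference -0.59 ± 0.17, adjusted p = 0.490), and its groups did not overlap. Creld2 also showed no overlap (38.5, 42.5 and 46.3 FPKM in the control tumors and 30.2, 22.4 and 34.5 FPKM in the PD-L2 tumors; -0.55 ± 0.27, adjusted p = 0.721). The central chaperone Hspa5 (BiP) overlapped at 404, 452 and 546 FPKM in the control tumors and 382, 294 and 489 FPKM in the PD-L2 tumors. Ddit3 and Ppp1r15a, which act downstream of PERK, had positive values of 0.52 and 0.68, with overlap. In 16 of the 24 genes the lowest of the 6 tumors was PD-L2 tumor 2, and without that tumor the list median was -0.01; it was -0.29 without control tumor 1, -0.25 without PD-L2 tumor 3 and -0.07 without control tumor 3.

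The Dnajc3 promoter is shown because it holds an endoplasmic reticulum stress element, the motif through which ATF6 and XBP1 act. RefSeq (GRCm38.p6) places the 250 bases before its start at chr14:118937682-118937931 on the plus strand, with the match in capitals; the motif searched is CCAAT, then 9 bases of any kind, then CCACG.
Dnajc3 promoter: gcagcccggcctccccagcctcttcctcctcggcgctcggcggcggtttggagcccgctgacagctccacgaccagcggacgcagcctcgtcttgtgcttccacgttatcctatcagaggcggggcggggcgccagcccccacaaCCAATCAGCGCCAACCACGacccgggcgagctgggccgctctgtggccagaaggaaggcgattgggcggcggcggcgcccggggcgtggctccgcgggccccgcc
The match lies 105 to 87 bases before the start. On either strand, the motif occurs in 0.113% of the 32851 promoter windows. Among 23 list genes with a promoter entry, 5 hold it: Creld2, Dnajc3, Hsp90b1, Hspa5 and Pdia6. Their log2 differences were -0.55, -0.78, -0.17, -0.29 and -0.13 in that order, and Dnajc3 alone passed the threshold. The sign was negative in all 5, as it was in 20 of the 24 tested genes of the whole list. A role of the motif was not tested.

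Kcnk3, which encodes a leak potassium channel, had lower values in PD-L2 tumors under BRAFi. It was 3.29, 9.54 and 5.05 FPKM in the control tumors and 0.659, 0.496 and 0.551 FPKM in the PD-L2 tumors. The control BRAFi tumors differed among themselves by more than the PD-L2 tumors did, and all PD-L2 tumors were below 1 FPKM. Group means were 10.5 times lower with PD-L2 (log2 difference -2.05 ± 0.29). Kcnk3 passed the filter on low values only through the control BRAFi tumors, so its call is a description and its p is not read as support. In vehicle tumors Kcnk3 was low in both groups, at 0.243, 0.238 and 0.320 FPKM in controls and 0.745, 0.220 and 0.447 FPKM with PD-L2. Zfp503, a zinc finger transcriptional regulator, rose: it was 8.84, 6.97 and 8.89 FPKM in the control tumors and 15, 15.9 and 20.8 FPKM in the PD-L2 tumors. Its log2 difference was 0.97 ± 0.14 (adjusted p = 0.0454), against -0.15 ± 0.14 under vehicle. Neither gene passed the threshold for the difference between the treatments (limma interaction, adjusted p = 0.418 for Zfp503). Zfp503 missed the threshold when any 1 of the 12 libraries was left out (limma adjusted p 0.0630 to 0.265). Kcnk3 missed it when any 1 of 11 was left out and kept its call only without control BRAFi tumor 1.

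Mir212 and Mir1940 were above 0 in the PD-L2 BRAFi tumors and listed at 0 in the other 9 libraries. Mir212 was 18.2, 14.8 and 18.5 FPKM in PD-L2 tumors 1 to 3. Mir1940 was 11.5, 9.33 and 12.9 FPKM. Both passed the filter on low values through the PD-L2 BRAFi tumors alone, and an exact 0 in such a table can be a failed estimate. Their calls set 1 group against libraries with no spread, so no fold and no p is given and they are a description. The same holds for the difference between the treatments, where these were the 2 of 12117 genes past the threshold (0.0165%); 542 genes (4.47%) had an unadjusted interaction p under 0.05, and no gene with values in the other groups passed after adjustment (limma). The libraries were made from poly(A) RNA, so these values describe reads over the short annotated precursor and not the mature miRNA.

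The mature sequences from RefSeq (GRCm38.p6, chromosome 11, plus strand) are shown because the 3p arms of miR-212 and its neighbour miR-132 share a seed; capitals mark the seed (bases 2 to 8) of each arm.
miR-212-3p: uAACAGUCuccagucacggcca
miR-132-3p: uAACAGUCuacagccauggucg
miR-212-5p: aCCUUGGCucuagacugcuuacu
The seed of both 3p arms is AACAGUC, and that of the miR-212 5p arm differs from it. Mir132 was listed at 0 in all 12 libraries, so the values of these neighbours differed. Among 264 tested genes of small RNAs (of 1190 in the table), the groups did not overlap for 11, of which 8 were higher in PD-L2 tumors; over all tested genes the share without overlap was 11.5%. Mir7019 was listed at 0 in the control tumors and was 22, 18.2 and 25.8 FPKM with PD-L2. Mir8104 was 0, 0.00309 and 3.09 FPKM in the control tumors and 8.24, 15.8 and 21.2 FPKM in the PD-L2 tumors. Snora64, a small nucleolar RNA, was 20.8, 27.5 and 16.5 FPKM in the control tumors and 40.9, 66.3 and 37 FPKM in the PD-L2 tumors, while Rpph1, the RNA of ribonuclease P, was lower with PD-L2 at 8.03, 15.2 and 18.2 FPKM in the control tumors and 5.54, 4.65 and 5.80 FPKM in the PD-L2 tumors. Over all tested genes, 102 were listed at 0 in every control BRAFi tumor and 103 in every PD-L2 BRAFi tumor.

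The next genes by p value on the higher side did not pass the threshold and are given as values. Fstl3, a secreted inhibitor of activin, came nearest: it was 2.93, 3.21 and 4.09 FPKM in the control tumors and 10.3, 6.87 and 10.8 FPKM in the PD-L2 tumors, a log2 difference of 1.21 ± 0.18 (limma adjusted p = 0.0550). Under vehicle the difference was 1.12 ± 0.18. Mmp14, a membrane-bound collagenase that activates pro-MMP2, was among the most abundant of these genes at 393, 337 and 385 FPKM in the control tumors and 608, 689.9 and 631 FPKM in the PD-L2 tumors (0.79 ± 0.14, adjusted p = 0.144). Its vehicle difference was 0.20 ± 0.14, and its groups did not overlap under BRAFi. Hspb1, a small heat shock protein, had the largest difference and the widest spread, at 4.61, 2.62 and 1.99 FPKM in the control tumors and 47, 8.36 and 35.8 FPKM in the PD-L2 tumors (2.70 ± 0.53, adjusted p = 0.291). PD-L2 tumor 2 was again the lowest PD-L2 tumor.

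The transcription factor genes Sox4 and Jun and the kainate receptor gene Grik2 showed like differences under both treatments. Sox4 had 0.70 ± 0.13 under BRAFi and 0.63 ± 0.13 under vehicle. Jun, an AP-1 subunit, had 0.54 ± 0.11 and 0.52 ± 0.11. Grik2 had 1.08 ± 0.21 and 1.29 ± 0.21. Gng11, a G protein gamma subunit, had opposite signs: it was 63.1, 43 and 59.1 FPKM in the control tumors and 101, 113 and 109.9 FPKM in the PD-L2 tumors under BRAFi (0.97 ± 0.20), and 115, 107 and 71.1 FPKM in control against 54, 40.5 and 50.7 FPKM in PD-L2 tumors under vehicle (-0.98 ± 0.20). Its groups overlapped under neither treatment, and the test of the difference gave an unadjusted p of 3.12e-05 and a limma adjusted p of 0.126.

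On the lower side, 10 further genes without overlap had limma adjusted p from 0.164 to 0.424. Tm9sf2, a Golgi membrane protein, was 99, 131 and 93.7 FPKM in the control tumors and 62.3, 51.2 and 65.3 FPKM in the PD-L2 tumors (-0.84 ± 0.16). Anxa1, an anti-inflammatory phospholipid-binding protein, was 593, 564 and 699.7 FPKM in the control tumors and 476, 414 and 348 FPKM in the PD-L2 tumors (-0.59 ± 0.14), against a vehicle difference of 0.21. Enpp2, which encodes autotaxin, the enzyme that makes lysophosphatidic acid, was 7.55, 8.25 and 6.87 FPKM in the control tumors and 4.64, 3.67 and 3.37 FPKM in the PD-L2 tumors (-0.81 ± 0.20). These values show no overlap between the groups but no call after adjustment. Pik3r3, a regulatory subunit of PI3 kinase, had -0.78 ± 0.16 under BRAFi and -0.87 ± 0.16 under vehicle. The leukocyte tetraspanin gene Cd53 had -0.84 ± 0.19 and -0.72 ± 0.19. The lipid flippase gene Atp10a had -0.82 ± 0.18 under BRAFi and 0.51 ± 0.18 under vehicle. Crip2 (-0.91), Fam198b (-0.76), Slc33a1, a transporter of acetyl-CoA (-0.52), and Hn1l (-0.50) complete the set.

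The BRAFi and vehicle comparisons share no library, but both come from the same fit and use the same SE for each gene. A gene with a low SE can thus reach a small p in both, so the overlap of small p-values is not independent agreement. Of the 23 genes above other than Pdcd1lg2 and the small RNA genes, 16 had the same sign under vehicle and 7 the opposite sign. Over all 12117 genes the sign was the same for 7179 (59.2%), and the log2 differences correlated with Pearson r = 0.23 and Spearman rho = 0.27 across genes, which are not independent. Of the 856 genes with an unadjusted p under 0.05 under BRAFi (7.06%), 631 (73.7%) had the same sign under vehicle. In all, 185 genes had an unadjusted p under 0.05 in both comparisons, which is 21.6% of the BRAFi set and 14% of the 1319 genes of the vehicle set (10.9% of all tested); 95 were higher in both, 70 lower in both and 20 opposite. After adjustment 0 genes passed under vehicle (limma, smallest adjusted p = 0.0521).

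**Figure D3:**
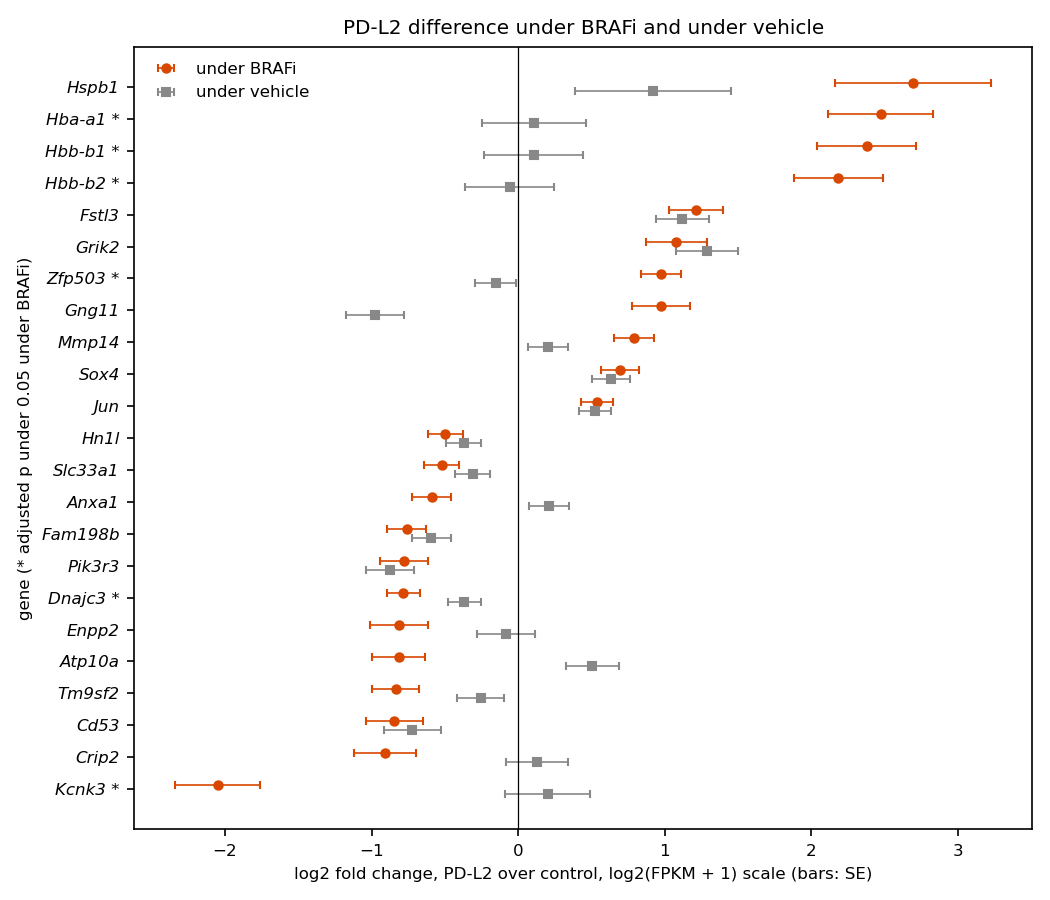
Log2 difference between PD-L2 and control tumors with its SE, under BRAFi (orange circles) and under vehicle (grey squares), for the 23 genes named by rank other than Pdcd1lg2 (asterisk: past the threshold under BRAFi). Fstl3, Grik2, Sox4, Jun and Pik3r3 have like values under both treatments, the hemoglobin genes, Zfp503 and Kcnk3 lie near 0 under vehicle, and Gng11 lies on opposite sides of 0.

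Beyond single genes, 41 lists of pathway and cell type genes were read by their members. The lists hold 853 genes, of which 838 were in the table and 693 passed the filter on low values. Members past the threshold occurred in 2 lists, the erythroid and the unfolded protein lists, so every other list is given by values, counts and its median beside the median of all genes (-0.01).

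No other member of the PD-1 ligand and B7 family passed the threshold. Cd274, which encodes PD-L1, the other PD-1 ligand, was 4.79, 6.33 and 6.21 FPKM in the control tumors and 4.06, 1.47 and 2.93 FPKM in the PD-L2 tumors. All PD-L2 tumors lay below all control tumors (log2 difference -0.88 ± 0.24, unadjusted p = 0.00347, limma adjusted p = 0.459). Cd80, a costimulatory B7 ligand that also binds PD-L1, was 7.58, 28.2 and 8.71 FPKM in the control tumors and 7.13, 1.04 and 7.04 FPKM in the PD-L2 tumors (-1.40 ± 0.57, adjusted p = 0.662); control tumor 2 was far above the rest. Rgmb, another binding partner of PD-L2, overlapped at 26.1, 28.7 and 37.3 FPKM in the control tumors and 32.9, 34.2 and 30.6 FPKM in the PD-L2 tumors. Of the 10 tested family members 7 were negative, with a list median of -0.34 (-0.07 without control tumor 1, -0.16 without PD-L2 tumor 3, -0.68 without control tumor 2 and -0.53 without PD-L2 tumor 2). The receptor gene Pdcd1 was below 0.5 FPKM in all 6 tumors.

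Genes of the MAPK pathway, which the inhibitor targets, showed no member past the threshold. Of 21 tested output genes 13 were negative and 8 positive, with a median of -0.04 (-0.11 to 0.03 when any 1 of the 6 BRAFi tumors was left out) and no list gene free of overlap between the groups. The ERK phosphatase gene Dusp6 was 189.5, 108 and 128 FPKM in the control tumors and 100.04, 102 and 128 FPKM in the PD-L2 tumors. Ccnd1, the cyclin of the G1 phase that ERK induces, was 299.8, 421 and 323 FPKM in the control tumors and 273, 247 and 400.2 FPKM in the PD-L2 tumors. Both overlapped. Among 19 immediate early genes, Atf3 (0.86 ± 0.27) and Jun were higher without overlap, and Fosb (-0.64 ± 0.26) was lower without overlap. Fosb had the opposite sign under vehicle (0.70 ± 0.26); the interaction p was 0.00463 unadjusted.

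Hypoxia and glycolysis genes had a median log2 difference of 0.54, and 23 of 27 were positive. None passed the threshold; 9 had an unadjusted p under 0.05 and were higher (4.25% of all genes), and 7 were higher without overlap (6.68% of all genes). Slc16a3, the lactate exporter, was 3.38, 5.58 and 10.5 FPKM in the control tumors and 37.1, 29.9 and 13 FPKM in the PD-L2 tumors (1.88 ± 0.42, limma adjusted p = 0.390). Adm, the vasodilator adrenomedullin, was 1.21, 15.5 and 12.7 FPKM in the control tumors and 64.3, 41.1 and 53.2 FPKM in the PD-L2 tumors (2.74 ± 0.69, adjusted p = 0.429). Tpi1, a glycolytic enzyme, was 238, 285 and 235 FPKM in the control tumors and 429, 334 and 403 FPKM in the PD-L2 tumors (0.62 ± 0.15, adjusted p = 0.424). In 17 of the 27 genes the lowest tumor was control tumor 1, and in 19 the highest was PD-L2 tumor 1. Control tumor 2 overlapped the PD-L2 tumors: Slc2a1, the glucose transporter, was 100.3, 385 and 138 FPKM in the control tumors and 355, 133 and 348 FPKM in the PD-L2 tumors. Without control tumor 1 the list median was 0.31. The vehicle median was also 0.54, and 25 of 27 genes had the same sign in both comparisons.

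Angiogenic factors had a median of 0.48. Vegfa, the main vessel growth factor, was 34.3, 50.4 and 51 FPKM in the control tumors and 98.7, 65.8 and 81.7 FPKM in the PD-L2 tumors (0.85 ± 0.28, adjusted p = 0.550), against 1.01 ± 0.28 under vehicle. Of 17 genes 12 were positive and 5 had an unadjusted p under 0.05, all higher (4.25% of all genes in that direction). None of the 17 passed the threshold. The list shares Adm and Vegfa with the hypoxia list. The list median was 0.21 without PD-L2 tumor 2, 0.28 without control tumor 1 and 0.32 without control tumor 3, and the vehicle median was -0.06.

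Cytosolic ribosomal protein genes had log2 differences of the same sign. All 30 were positive, 26 did not overlap between the groups (6.68% of all genes in that direction) and 22 had an unadjusted p under 0.05 (4.25% of all genes), but 0 passed after adjustment (limma, smallest adjusted p = 0.441). Rpl28 was 1907, 1705 and 1840.3 FPKM in the control tumors and 3095, 2351 and 2929 FPKM in the PD-L2 tumors (0.61 ± 0.16). Rps2 was 1394, 1509.96 and 1576 FPKM in the control tumors and 2185, 1856 and 2084 FPKM in the PD-L2 tumors (0.45 ± 0.13). The summed level of the 30 genes was 33669 to 37175 FPKM in control and 42765 to 52274 FPKM in PD-L2 tumors. The list median of 0.41, which was 0.42 above that of all genes, depended on scaling. With every library set to the same FPKM sum it was 0.20, and the median of all genes moved to -0.19. The list then lay 0.40 above all genes. After quantile normalization the list median was 0.10, which was 0.09 above that of all genes. These transcripts were short (median 1124 bases against 3302 for all genes with a length), and over all genes the log2 difference correlated with length at a Spearman rho of -0.12; the part of length or FPKM sum was not tested. The vehicle median was 0.12.

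Of the mitosis genes 27 of 28 were negative, with a median of -0.23, and 7 were lower without overlap (4.78% of all genes). The median was -0.34 without control tumor 2. It was -0.18 without control tumor 1, control tumor 3 or PD-L2 tumor 3. Cenpa, the centromere histone, was 38.4, 41 and 47.4 FPKM in the control tumors and 35.3, 33.2 and 26.9 FPKM in the PD-L2 tumors (-0.40 ± 0.14, limma adjusted p = 0.579). The vehicle median was 0.04. DNA replication genes had a median of -0.03 (-0.10 to 0.02 when any 1 of the 6 was left out), with 17 of 30 negative. Sterol and fatty acid synthesis genes were negative in 22 of 27 (median -0.26, against 0.33 under vehicle). Control tumor 2 was the highest tumor for 21 of those 27, and without it the median was -0.01.

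**Figure D4:**
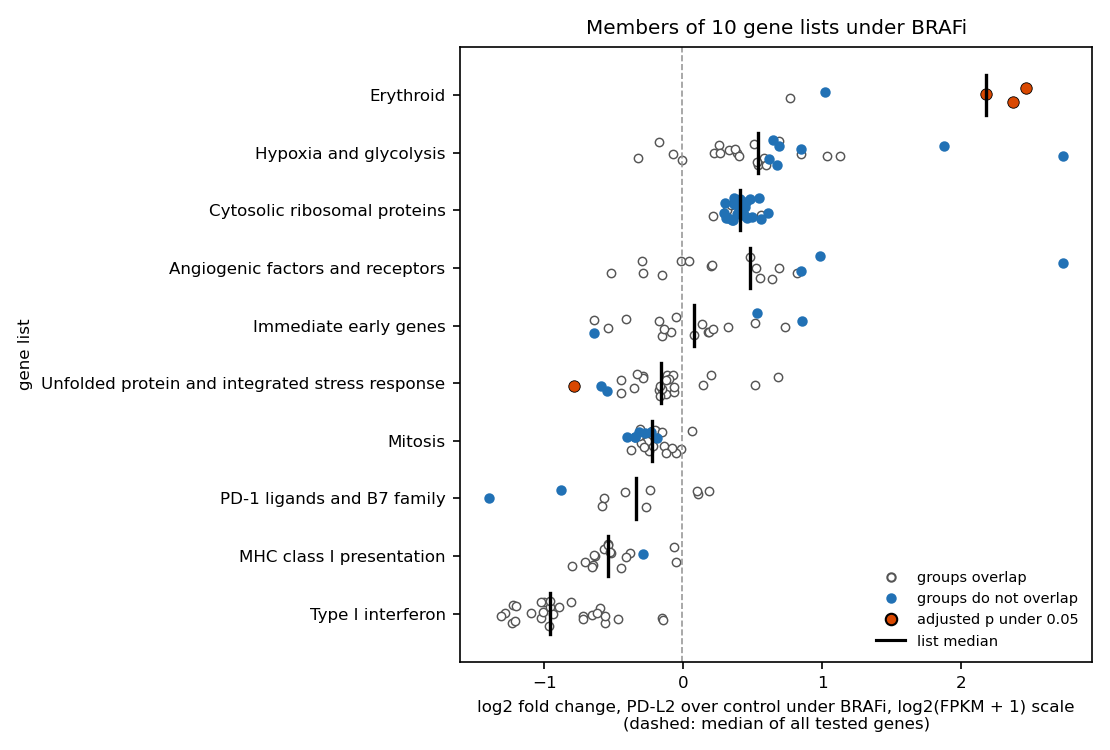
Log2 difference between PD-L2 and control tumors under BRAFi for each tested member of 10 gene lists (points; filled where the tumors do not overlap, orange where past the threshold), with the list median (black bar) and the median of all tested genes (dashed line). Ribosomal protein genes form a tight block to the right of 0, and type I interferon genes lie to the left with no filled point.

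Under BRAFi, interferon and antigen presentation genes were lower on average, with values that followed single tumors in both groups. All 27 tested type I interferon response genes were negative, with a median of -0.96, but the groups overlapped for every gene and none had an unadjusted p under 0.05. Isg15, a ubiquitin-like antiviral modifier, was 204, 19.3 and 70.8 FPKM in the control tumors and 79.5, 20.8 and 20.1 FPKM in the PD-L2 tumors. Irf7, which amplifies interferon production, was 168, 15.9 and 63.4 FPKM in the control tumors and 77.1, 16.2 and 10.2 FPKM in the PD-L2 tumors. Control tumor 1 was the highest of the 6 for all 27 genes, and PD-L2 tumor 3 the lowest for 23. MHC class I genes behaved alike: 17 of 17 were negative with a median of -0.54, and the light chain gene B2m was 3872, 1014 and 2026 FPKM in the control tumors and 2533, 1021 and 1039.9 FPKM in the PD-L2 tumors. Pdia3, a member of the peptide loading complex, was the sole gene without overlap (-0.29 ± 0.11, limma adjusted p = 0.649). Without control tumor 1 the interferon median was -0.26 and that of MHC class I -0.02; without PD-L2 tumor 3 they were -0.56 and -0.16, and without control tumor 2 they were -1.66 and -1.12. Without PD-L2 tumor 1 they were -1.49 and -0.95. Under vehicle the medians were -1.01 and -0.78, with 27 of 27 and 17 of 17 genes negative. In the vehicle tumors the summed levels did not overlap. They were 851 to 1396 FPKM in control and 409 to 717 FPKM in PD-L2 tumors for interferon. For MHC class I they were 4066 to 4928 FPKM and 2639 to 3316 FPKM. No member passed the threshold under vehicle. Over all 12117 tested genes, 2493 (20.6%) did not overlap between the groups under vehicle, against 1389 (11.5%) under BRAFi.

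Macrophage genes had a median of -0.22 and a summed level of 1500 to 3116 FPKM in control and 1204 to 3728 FPKM in PD-L2 tumors, so the groups overlapped; the median was 0.12 without PD-L2 tumor 3, -0.05 without control tumor 1, -0.12 without control tumor 3, -0.48 without PD-L2 tumor 2 and -0.42 without control tumor 2. Csf1r, the receptor that macrophages need, was 49.8, 22.9 and 57.8 FPKM in the control tumors and 28.8, 67.3 and 17 FPKM in the PD-L2 tumors. MHC class II and dendritic genes were negative in 7 of 7 (median -0.87, -0.17 without PD-L2 tumor 3, -0.50 without control tumor 1, -0.55 without control tumor 3 and -1.59 without control tumor 2). Cd74, the invariant chain, was 422, 87.8 and 328 FPKM in the control tumors and 187, 225 and 40.5 FPKM in the PD-L2 tumors, highest in control tumor 1 and lowest in PD-L2 tumor 3. Fibroblast genes had a median of -0.25, which was 0.07 without control tumor 2, -0.04 without PD-L2 tumor 2, -0.15 without PD-L2 tumor 3 and -0.39 without PD-L2 tumor 1; Dpt, a dermal matrix protein, was 35, 41.8 and 28.1 FPKM in the control tumors and 19.6, 11.9 and 12.2 FPKM in the PD-L2 tumors (-1.23 ± 0.44, limma adjusted p = 0.621) without overlap.

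Keratinocyte and skeletal muscle lists had positive medians, 1.34 and 0.89, that came from PD-L2 tumor 3. Krt14, a keratin of basal epidermis, was 0, 0.132 and 0 FPKM in the control tumors and 0.0533, 0 and 81.8 FPKM in the PD-L2 tumors. Acta1, skeletal muscle actin, was 3.38, 0.466 and 0.246 FPKM in the control tumors and 0.876, 0.284 and 96 FPKM in the PD-L2 tumors. For all 8 tested keratinocyte genes and for 10 of 12 muscle genes PD-L2 tumor 3 was the highest of the 6. The summed muscle level was 6.59 to 18.9 FPKM in the control tumors and 6.83, 10.2 and 222 FPKM in PD-L2 tumors 2, 1 and 3. Without PD-L2 tumor 3 the medians were -0.04 and -0.19, without PD-L2 tumor 2 they were 2.07 and 1.48, and without PD-L2 tumor 1 the muscle median was 1.45.

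**Figure D5:**
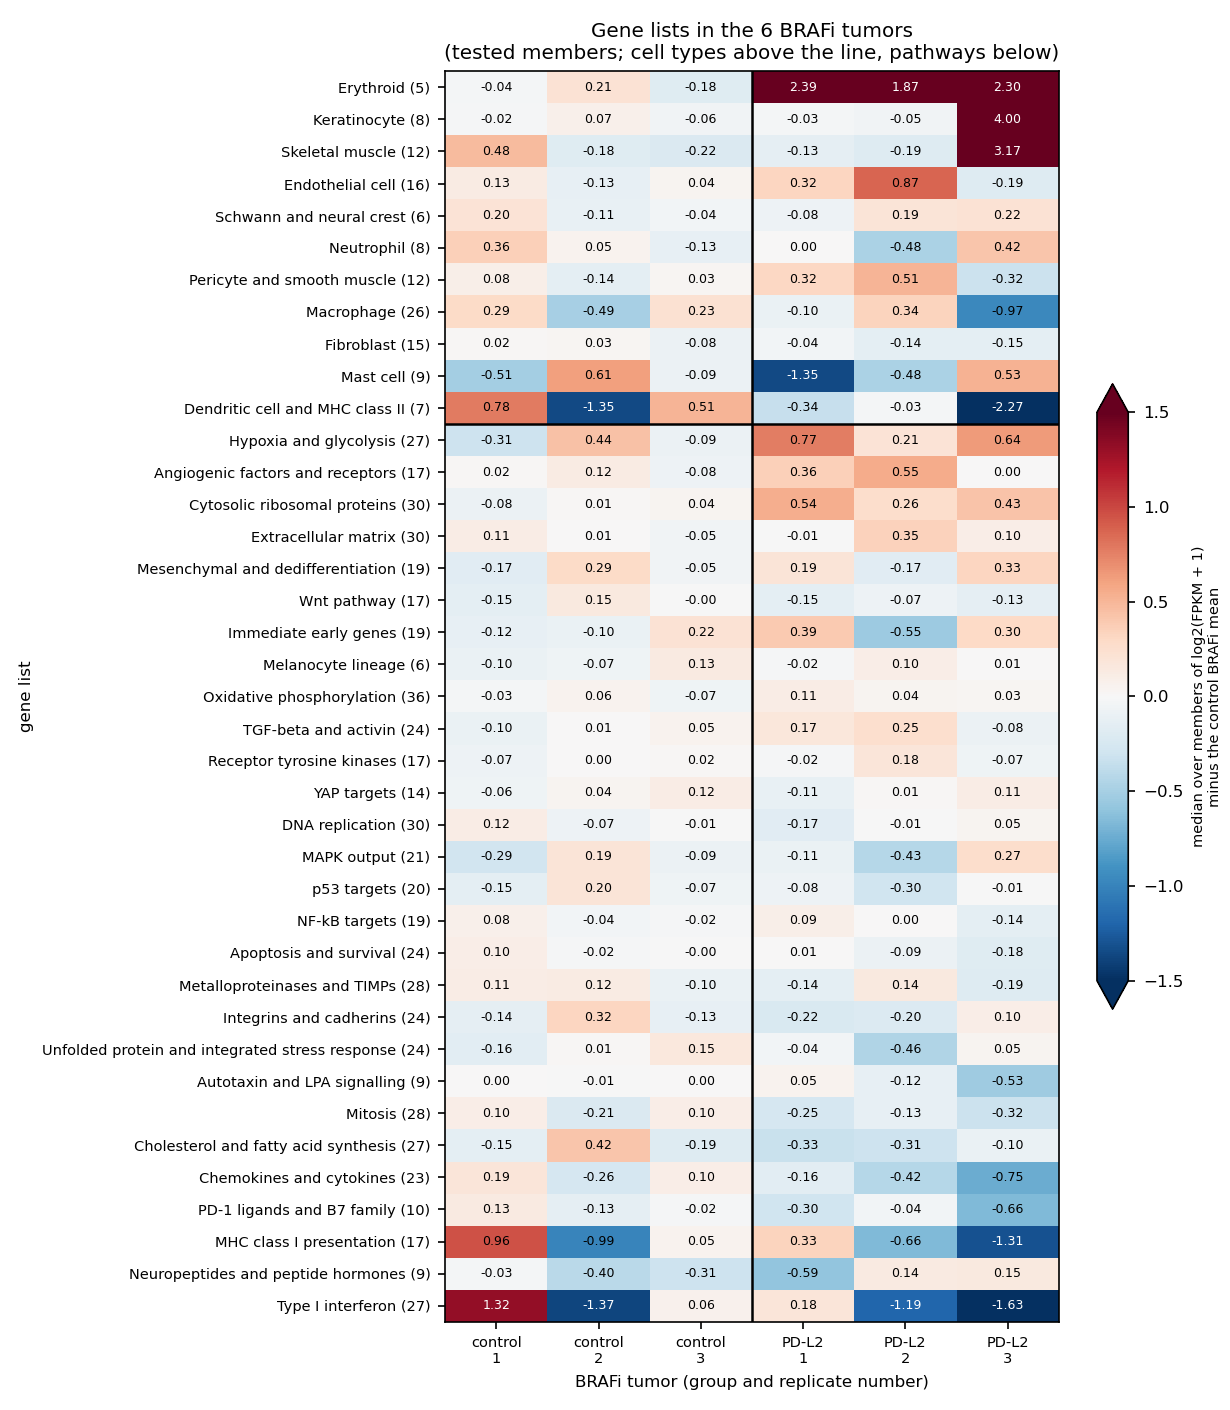
Median over the tested members of log2(FPKM + 1) minus the control BRAFi mean, for the 39 gene lists with at least 5 tested members (rows, number tested in brackets) in each of the 6 BRAFi tumors (columns). The erythroid row is positive in all 3 PD-L2 tumors, the keratinocyte and muscle rows reach 4.0 and 3.17 in PD-L2 tumor 3, and the type I interferon row varies as much within groups as between them.

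Matrix remodelling genes included members on both sides. Of 28 tested metalloproteinases and inhibitors, 18 were negative and 10 positive (median -0.11, and 0.01 without PD-L2 tumor 3 or control tumor 2, -0.04 without control tumor 1 and -0.03 without PD-L2 tumor 1). Mmp9, a gelatinase, was 104, 64.5 and 64.9 FPKM in the control tumors and 137, 119 and 161 FPKM in the PD-L2 tumors (0.86 ± 0.32, limma adjusted p = 0.631), and had the opposite sign under vehicle (-1.52 ± 0.32; interaction unadjusted p = 2.93e-04). Mmp1a, a collagenase, was 74.5, 26.1 and 4.62 FPKM in the control tumors and 5.04, 4.83 and 7.94 FPKM in the PD-L2 tumors, so control tumors 1 and 2 lay above and control tumor 3 below all PD-L2 tumors. The extracellular matrix list, which holds Vcan and Thbs2, had 23 of 30 tested genes positive and 7 negative (median 0.16). Of these genes, 2 were higher and 1 was lower without overlap. The list median was 0.08 without PD-L2 tumor 2 and -0.04 with equal FPKM sums, where the median of all genes was -0.19. The proteoglycan gene Vcan was 37.5, 78.3 and 69.6 FPKM in the control tumors and 72.9, 134 and 119 FPKM in the PD-L2 tumors (0.83 ± 0.30), with overlap. Thbs2, an inhibitor of angiogenesis, was 47.3, 45 and 39.9 FPKM in the control tumors and 31.6, 32.8 and 26.6 FPKM in the PD-L2 tumors (-0.53 ± 0.15) without overlap. None of these passed the threshold.

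Among 24 TGF-beta and activin genes 15 were positive, with a median of 0.06, which was 0.07 above that of all genes and stayed 0.06 above it with equal FPKM sums. That median was 0.10 to 0.14 without control tumor 1, control tumor 3, PD-L2 tumor 2 or PD-L2 tumor 3. Smad7, a feedback inhibitor of the pathway, was 9.19, 11.3 and 10.7 FPKM in the control tumors and 15.2, 11.1 and 18.2 FPKM in the PD-L2 tumors (0.45 ± 0.18, limma adjusted p = 0.659) with overlap; Fstl3 was the list's sole gene without it. Wnt pathway genes had a median of 0.09 (0.10 above that of all genes, and 0.08 above it with equal FPKM sums), which was -0.06 without PD-L2 tumor 2, -0.02 without PD-L2 tumor 3, 0.02 without control tumor 1 and 0.04 without control tumor 2, and the non-canonical ligands pointed in opposite directions: Wnt5a was 21.2, 30.6 and 29.7 FPKM in the control tumors and 12.2, 11 and 23.1 FPKM in the PD-L2 tumors (-0.83 ± 0.31) and Wnt5b was 0.852, 0.610 and 0.948 FPKM in the control tumors and 1.72, 2.26 and 1.37 FPKM in the PD-L2 tumors (0.62 ± 0.21). Of 14 YAP target genes 7 were positive. Ctgf, a matricellular growth factor, was 75.9, 29.4 and 57 FPKM in the control tumors and 34.1, 20.9 and 14.8 FPKM in the PD-L2 tumors (-1.16 ± 0.44). Ajuba, of the same list, had the opposite sign (0.41 ± 0.15), and both genes overlapped. The autotaxin list had a median of -0.22 (-0.10 without control tumor 1 and -0.08 without PD-L2 tumor 3), with 6 of 9 negative. Its summed level pointed the other way without overlap, at 199.3 to 211.6 FPKM in control and 225.5 to 236.2 FPKM in PD-L2 tumors. Enpp2 was lower without overlap. Lpar1, a receptor for lysophosphatidic acid, was higher without overlap, at 36.3, 63.1 and 49.7 FPKM in the control tumors and 76.3, 68.6 and 67.7 FPKM in the PD-L2 tumors (0.54 ± 0.21, limma adjusted p = 0.652). None of these genes passed the threshold. In the remaining lists, 0 members passed and the medians lay between those of the interferon and erythroid lists.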

How the data were processed

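RNA sequencing (poly(A) selected, unstranded libraries, per the labels' protocols) was available for 12 tumors in 4 groups of 3. The FPKM values are those the authors deposited, 1 per gene and tumor; per the submitters' processing notes TopHat, TopHat2, Cuffnorm and Cuffdiff were used with mm9, with no roles or versions. Read layout differs between the sources (paired-end in the protocol, single-end in the design text). Read counts were not used here, and low values gave no whole-read steps, so depth and counting error are unknown. Overlapping and antisense genes cannot be told apart without strand.

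Values were analysed as log2(FPKM + 1), keeping genes whose mean over the libraries reached 1 FPKM, in 1 limma fit (limma 3.58.1, R 4.3.3) with 4 group means over 12 libraries, eBayes with a trend, two-sided tests and Benjamini-Hochberg adjustment over 12117 genes (threshold 0.05). Log2 differences understate the change of low genes. With 3 tumors against 3 an exact permutation test of a single gene cannot go below p = 0.1, so none was used. The labels number the tumors within a group; p-values measure the spread between these tumors. Tested on simulated data for the BRAFi comparison over 12117 genes, the fit called 67 of 100 genes changed by log2 1 and 94 of 100 changed by log2 2, with 8 false calls. The adjusted threshold is looser with so many planted changes than in the data, where 9 genes passed. These rates therefore do not carry over to the comparison. In the data, 53 genes without overlap and with a log2 difference of at least 1 were not called, small RNA genes aside. Named genes were those past the threshold, then genes without overlap between the groups and with a group mean of at least 5 FPKM, up to 12 in each direction by p, and up to 3 members of a list by p where the unadjusted p was under 0.05; small RNA genes were taken as a group. Not every list member that this rule names is given in the text. Further list members were chosen for their role after their values were seen. The comparison and the gene lists were chosen with earlier results of these data known. Alternatives were other pseudocounts, filters and scalings, a fit to the groups compared, no trend, array weights, a replicate block, each library left out and, chosen after seeing the data, removal of a length trend.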

Additional observations from a re-analysis of the deposited data

Results flagged for a closer look

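Mir212 and Mir1940 stood out in the comparison of the PD-L2 difference between the treatments (limma interaction). The fitted difference was 4.18 for Mir212 and 3.61 for Mir1940 on the log2(FPKM + 1) scale. Both were above 0 in 3 of 3 PD-L2 BRAFi tumors and listed at 0 in the other 9 libraries, which show no spread, and both passed the filter on low values through the PD-L2 BRAFi tumors alone. These values are therefore no folds, and their p is not read as support. Groups of 3 tumors were too small for a search for single outlying tumors.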

How the results depend on the processing

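The count of 9 genes past the threshold under BRAFi was not stable. It was 2 with a pseudocount of 5, with no filter, without the trend or with the replicate block, 3 with equal FPKM sums (with or without small RNA genes) or a fit to the 2 groups alone, and 1 with the length trend removed; it was 2 to 14 when 1 library was left out. Array weights gave 1032 genes under BRAFi, 1584 under vehicle and 27 for the difference between the treatments, with weights of 0.327 to 15.7 and an estimation that stopped before convergence. The cause was not tested. The vehicle count of 0 became 2 with pseudocounts of 0.1 or 0.5 or a filter at 5 FPKM, 7 with no filter, 1 after quantile normalization, 6 in a fit to 2 groups and 0 to 3 when 1 library was left out. The interaction count of 2 became 1 with a pseudocount of 0.1 or the length trend removed, 0 with a filter at 5 FPKM, and 2 to 5 when 1 library was left out. Pdcd1lg2 kept its sign in all 25 alternatives and passed the threshold in 6. It missed it at a log2 difference of 3.82 with a pseudocount of 5, 4.98 and 5.07 with equal FPKM sums with and without small RNA genes, 5.10 with the length trend removed, and 5.11 with no filter, no trend, 2 groups or the replicate block; it was 4.60 to 6.12 when 1 library was left out. No named gene changed sign in any alternative, and 58 of 1024 list medians moved by more than their spread. That spread is the SD between BRAFi tumors within a group, so it is wide where a single tumor stands apart. The keratinocyte median went from 1.34 to -0.04 without PD-L2 tumor 3, inside its SD of 1.65, and so was not counted as moved. Over the scalings the median of 12 lists changed sign, while the median of all genes also shifted (-0.19 with equal FPKM sums). Replicate numbers are shared between the groups. Deviations from the group means correlated at 0.06, -0.37 and -0.25 for same-numbered BRAFi tumors, and at -0.23 to 0.39 for differently numbered ones. Deviations from a mean of 3 tumors are tied to each other. These correlations therefore cannot show whether same-numbered tumors share more than a number. The replicate block left 2 genes under BRAFi, 0 under vehicle and 2 for the difference. The lymphocyte list had no member left with a filter at 5 FPKM.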

Other observations

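Genes outside the naming rule and the lists, chosen after their values were seen, are given as values. Of the genes without overlap under BRAFi, a log2 difference of at least 1 in size and no call, 53 remained after small RNA genes were set aside, 36 higher and 17 lower, and 43 of the 53 had the same sign under vehicle. The imprinted noncoding RNA genes Meg3 and Rian, neighbours in the Dlk1-Dio3 cluster, were both higher with PD-L2. Meg3 was 1.04, 1.02 and 9.66 FPKM in the control tumors and 16.5, 13.6 and 17.8 FPKM in the PD-L2 tumors (2.25 ± 0.54), and Rian was 1.28, 1.87 and 14.7 FPKM in the control tumors and 17.2, 14.8 and 24.1 FPKM in the PD-L2 tumors (2.04 ± 0.64). Control tumor 3 was the highest control for both. Hmox1, the heme-degrading enzyme, was 29.7, 73.9 and 46 FPKM in the control tumors and 135, 124 and 133 FPKM in the PD-L2 tumors (1.47 ± 0.42), against 1.13 ± 0.42 under vehicle. Car9, a carbonic anhydrase induced by hypoxia, was 6.08, 16.2 and 5.79 FPKM in the control tumors and 75.4, 28.6 and 18.3 FPKM in the PD-L2 tumors (1.91 ± 0.52). On the lower side, Plet1 was 129.7, 254 and 16.2 FPKM in the control tumors and 13.7, 15.8 and 6.21 FPKM in the PD-L2 tumors (-2.78 ± 0.85). None of these passed the threshold.

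Braf, the gene of the inhibited kinase, was 15.3, 29.7 and 9.14 FPKM in the control tumors and 6.97, 5.84 and 8.35 FPKM in the PD-L2 tumors (-1.11 ± 0.34, limma adjusted p = 0.549), without overlap, and 2.30 to 4.55 FPKM in the 6 vehicle tumors.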
